A study of Homo sapiens with 20 samples.

Results

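Expression of 9 genes that encode surface ligands through which tumor cells meet immune cells was examined in 4 human lung cancer cell lines after CRISPR-Cas9 targeting of ADAR. The genes were chosen by symbol, and each matched 1 of the 58233 Ensembl gene identifiers in the count files. They were CD274, PDCD1LG2 and CD47 (checkpoint ligands), PVR and NECTIN2 (nectin-family ligands), ICAM1 (an adhesion ligand), and MICA, MICB and ULBP2 (NKG2D ligands). ADAR encodes ADAR1, an enzyme that converts adenosine to inosine in double-stranded RNA.

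The 20 RNA-seq libraries fell into 10 conditions of 2 libraries each. HCC366 (lung adenosquamous carcinoma), NCI-H1650 (lung adenocarcinoma) and NCI-H196 (variant small cell lung cancer), the 3 ADAR1-dependent lines, were left untreated and were sampled 5 days after a single lentivirus had delivered both Cas9 and an sgRNA against GFP (control) or ADAR. A549 (lung adenocarcinoma) carried Cas9 with an sgRNA against GFP or ADAR and received vehicle (sterile water) or 10 ng/mL interferon-β (IFN-β) for 24 h. The libraries of a condition came from 2 different sgRNAs (sg1 and sg2) and were used as replicates, so p-values measure the spread between sgRNAs. All libraries came from drug-selected transduced populations and not from single clones. Fewer expressing cells and less RNA per cell cannot be told apart in these bulk samples.

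The ligands have opposing roles toward lymphocytes and phagocytes. PD-L1 (CD274) and PD-L2 (PDCD1LG2) engage PD-1 on T cells and restrain them, and CD47 engages SIRPα on macrophages as a signal against phagocytosis. PVR and NECTIN2 bind the activating receptor DNAM-1 and the inhibitory receptor TIGIT on T and NK cells. ICAM1 binds the integrin LFA-1 and holds lymphocytes to their targets, and MICA, MICB and ULBP2 are stress-inducible ligands of NKG2D, an activating receptor of NK cells and cytotoxic T cells. Type I interferon signals through the kinase JAK1, and IRF1 is an interferon-inducible transcription factor that can act at the CD274 promoter.

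In GRCh37 coordinates, CD274 (chr9:5450503-5470566, + strand) and PDCD1LG2 (chr9:5510531-5571282, + strand) lie 39964 bases apart. PVR (chr19:45147098-45169430, + strand) and NECTIN2 (chr19:45349432-45392480, + strand) lie 180001 bases apart. MICA (chr6:31367561-31383092, + strand) and MICB (chr6:31462658-31478901, + strand) are paralogs 79565 bases apart in the major histocompatibility complex. CD47 (chr3:107761938-107810709, - strand), ICAM1 (chr19:10381769-10397291, + strand) and ULBP2 (chr6:150263150-150270371, + strand) lie elsewhere. All 9 are protein-coding, and values count reads over exons. Reads that matched more than 1 place were not counted, so values of MICA, MICB and ULBP2, which have close paralogs, are uncertain. PVR shares 121 exon bases with CEACAM19 and 2029 with an unnamed gene on the same strand, and ICAM1 shares 815 exon bases with the antisense gene ICAM4-AS1, which held 16 reads over all 20 libraries.

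RefSeq promoters (assembly GRCh38.p14) were found for 8 of the 9 genes and not for PDCD1LG2. The promoters of CD274 and ICAM1 are shown, which held interferon-type motifs. These genes were called with both ADAR loss and IFN-β. PVR and CD47 were also called with both, and their promoters, which held none of the motifs searched, are not shown. Those of MICA and MICB are shown because these paralogs were called in different comparisons of knockout and IFN-β within A549. Each run holds the 250 bases before the annotated start, 5′ to 3′ on the gene's strand, and capitals mark interferon-type motifs found by exact search on both strands.
CD274 promoter, chr9:5450292-5450541, + strand: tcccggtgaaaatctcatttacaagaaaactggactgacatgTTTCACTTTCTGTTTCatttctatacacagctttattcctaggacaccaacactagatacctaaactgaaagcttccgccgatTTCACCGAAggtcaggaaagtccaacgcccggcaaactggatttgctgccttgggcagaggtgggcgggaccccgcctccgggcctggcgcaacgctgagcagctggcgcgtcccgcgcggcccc
ICAM1 promoter, chr19:10270870-10271119, + strand: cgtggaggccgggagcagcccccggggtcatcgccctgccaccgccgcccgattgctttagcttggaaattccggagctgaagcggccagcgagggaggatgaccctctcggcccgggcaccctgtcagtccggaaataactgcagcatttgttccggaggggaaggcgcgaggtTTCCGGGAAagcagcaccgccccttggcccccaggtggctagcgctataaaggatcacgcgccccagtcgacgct
MICA promoter, chr6:31403345-31403594, + strand: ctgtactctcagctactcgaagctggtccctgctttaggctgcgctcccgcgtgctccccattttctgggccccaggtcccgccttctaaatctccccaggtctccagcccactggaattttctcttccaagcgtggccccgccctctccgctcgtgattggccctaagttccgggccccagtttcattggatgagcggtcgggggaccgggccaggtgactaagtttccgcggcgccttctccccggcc
MICB promoter, chr6:31497895-31498144, + strand: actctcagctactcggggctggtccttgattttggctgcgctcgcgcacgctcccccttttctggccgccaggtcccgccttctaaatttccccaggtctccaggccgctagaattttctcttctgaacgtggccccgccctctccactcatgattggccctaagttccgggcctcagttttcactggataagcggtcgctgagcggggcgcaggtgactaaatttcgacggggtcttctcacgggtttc

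A search covered 6 motifs. The core of the interferon-stimulated response element (GAAA, any 2 bases, GAAA) was matched in the CD274 promoter by overlapping copies on the reverse strand, at positions -208 to -199 and -202 to -193 from the start, and a gamma-activated site (TTCNNNGAA) stood at -125 to -117. ICAM1 held 1 gamma-activated site at -75 to -67. The other 6 promoters held none of the motifs, which also comprised the NF-κB site by name, TGACGTCA, TGATGNAA and the heat shock element by name. Of 35116 RefSeq promoters of this length, 3.02% held the interferon element, 6.57% the gamma-activated site, 5.21% the NF-κB site, 1.65% TGACGTCA, 3.14% TGATGNAA and 0.441% the heat shock element. The MICA and MICB promoters were 85.0% identical over 246 aligned columns. The NF-κB site was searched in 1 exact form beginning with GGG, so variants of it, in the ICAM1 window or elsewhere, would be missed. A match or its absence describes letters in this window only.

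Libraries held 62679 to 19520189 reads on genes, and 2 of them stood apart. NCI-H196 GFP sg2 held the 62679 reads, so that 1 read was worth 14.7 CPM (counts scaled to the TMM-adjusted total of the library) there, and HCC366 ADAR sg2 had 85.6% of its reads aligned to more than 1 place, against 22.5% to 59.1% in the other 19. ADAR mRNA was lower after ADAR targeting in each line, with log2 fold changes between -1.29 and -0.41, and passed the test in all lines except HCC366, where it was 804 and 1101 CPM in controls and 571 and 490.2 CPM in knockouts. All 10 immune-cell markers together summed to at most 13.2 CPM in any library, with CD3D, CD3E, LYZ and HBB at 0 reads in all 20. Keratins KRT8 and KRT18 reached at least 634 CPM in A549, HCC366 and NCI-H1650 but at most 48.3 CPM in NCI-H196. Other epithelial markers were low in A549 and HCC366, with EPCAM at most 0.509 and 2.01 CPM, KRT19 at most 1.33 and 0 CPM, and CDH1 at most 50.2 and 10.6 CPM. NCI-H196 had at least 1847 CPM of VIM. The neuroendocrine marker NEUROD1 had 0 reads and INSM1 1 read over all 20 libraries, and CHGA and SYP were each at most 2.03 CPM in NCI-H196. In HCC366 the squamous markers summed to at most 8.41 CPM, and NKX2-1, a lung lineage factor, was at most 0.647 CPM in any line.

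Basal levels in the control libraries spanned the widest range for ICAM1. Per kilobase of exon, on 1 scale across all libraries, ICAM1 was the highest of the 9 genes in HCC366 (59.7 and 50.2 CPM per kb in sg1 and sg2) and the lowest in A549 (0 and 0.0481 CPM per kb, from 0 and 2 reads). In the A549 library with 0 reads, up to 0.396 CPM (scaled within the line, not per kb) was allowed by the limit of 3 reads. NCI-H196 had 6.93 and 18.2 CPM per kb and NCI-H1650 3.09 and 2.06. The 4 lines did not overlap in this gene. Against the 2 reads in A549, ICAM1 was 1666 times higher in HCC366 (95% interval 459.9 to 13776 from exact counting), 222 times higher in NCI-H196 (60.8 to 1843) and 81.8 times higher in NCI-H1650 (21.98 to 686). Such intervals cover counting error only.

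The checkpoint ligands were arranged differently. CD274 was low at baseline in every line, at 3.02 and 2.19 CPM per kb in NCI-H1650, 1.796 and 0 in NCI-H196, 1.01 and 1.09 in A549, and 0.174 and 0.261 in HCC366. The 0 in NCI-H196 came from the shallow GFP sg2 library, in which 0 reads allowed up to 43.98 CPM. That limit is scaled within the line and not divided by exon length, so it is not on the per-kb scale. PDCD1LG2 reached 15.4 and 4.301 CPM per kb in NCI-H196 and 6.49 and 4.73 in NCI-H1650, but 0.394 and 0.205 in A549 and 0 and 0.1101 in HCC366. The 1 read in HCC366 controls put NCI-H1650 70.4 times higher, with an interval of 12.4 to 2799. CD47, which most cell types carry, stood at 19.4 and 19.1 CPM per kb in HCC366, 17.5 and 20.3 in NCI-H196, 12.2 and 10.98 in NCI-H1650 and 3.22 and 4.201 in A549, so A549 lay below the other lines.

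NECTIN2 and PVR were the most abundant of the 9 in A549, at 36.7 and 38.6 CPM per kb for NECTIN2 and 29.7 and 32.5 for PVR. The same pair led in NCI-H1650, where their libraries overlapped (23.8 and 25.5 against 24.4 and 21.4). NECTIN2 was lowest in NCI-H196, at 8.17 and 5.59 CPM per kb. Among the NKG2D ligands, MICB led all 9 genes in NCI-H196 (33.9 and 33.6 CPM per kb) and was lowest in A549 (6.22 and 4.595). ULBP2 was 15.4 and 16.6 CPM per kb in NCI-H1650 and 14.9 and 31.3 in NCI-H196, but 2.68 and 2.01 in HCC366 and 2.15 and 2.67 in A549. MICA varied least in ratio, from 5.35 to 10.8 CPM per kb over the control libraries.

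**Figure D1:**
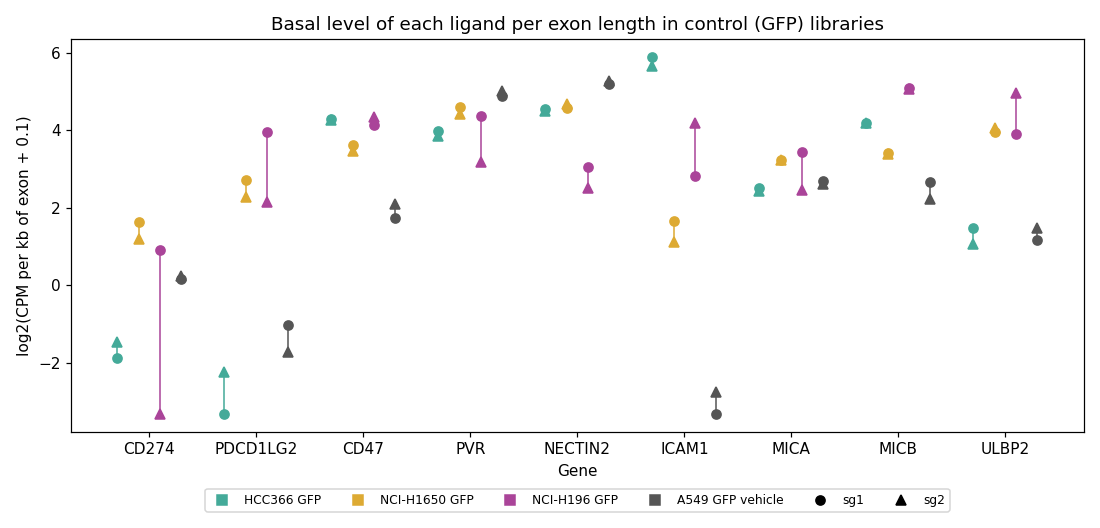
Basal level of each gene in the control (GFP) libraries, as log2 of CPM per kilobase of exon plus 0.1 (y axis), for the 9 ligands (x axis). Colors mark the 4 lines, circles sg1 and triangles sg2, and a line joins the libraries of a condition. ICAM1 runs from 59.7 CPM per kb in HCC366 to 0 in A549, and the long CD274 line of NCI-H196 ends at the shallow library with 0 reads.

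Within a line, neighbors in this order overlapped between their libraries for MICA and MICB in A549, for NECTIN2 and PVR and for CD274 and ICAM1 in NCI-H1650, and for none in HCC366. In NCI-H196, the library values placed MICB above all others and CD274 below all others, while every neighboring pair between ULBP2 and NECTIN2 overlapped. The GFP sg2 values in this order rested on 9 reads for MICB, 4 for ULBP2 and 0 for CD274, so both separations and overlaps are uncertain. By sg1 alone, the deeper control library there, PVR, CD47 and PDCD1LG2 followed MICB.

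All pairs of lines were compared with edgeR's quasi-likelihood test over 19523 genes (adjusted p under 0.05), each line sharing its GFP libraries between its comparisons. HCC366 and NCI-H1650 differed in 8 of 9 ligands where 41% of all genes were called, NCI-H1650 and A549 in 8 (53.8% of all genes), and NCI-H196 and A549 in 8 (57.8%). HCC366 and NCI-H196 differed in 7 (43.2%), HCC366 and A549 in 6 (50.8%), and NCI-H1650 and NCI-H196 in 4 (46.7%). With all libraries ICAM1 was called in the 6 comparisons, NCI-H1650 lying below NCI-H196 by a log2 difference of -1.51 ± 0.28 (SE, adjusted p = 4.1e-05, -2.80 to -1.26 with 1 library left out). Between HCC366 and NCI-H196 its log2 difference of 2.89 went to 1.59 (adjusted p = 0.094) without NCI-H196 GFP sg1 and was no longer called. NECTIN2 was lower in NCI-H196 than in A549 (-2.22 ± 0.25, adjusted p = 2.2e-09), and MICB was higher there (2.67 ± 0.22, adjusted p = 2.5e-12). Without NCI-H196 GFP sg1, which leaves the 62679-read library alone, the calls fell to 1 between HCC366 and NCI-H196, to 1 between NCI-H1650 and NCI-H196, and to 5 between NCI-H196 and A549. Calls between HCC366 and NCI-H1650 fell to 4 without HCC366 GFP sg2.

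IFN-β raised all 3 checkpoint ligands in A549 control cells. CD274 went from 3.43 and 3.59 CPM with vehicle to 25.7 and 18.3 CPM with IFN-β in the GFP sg1 and sg2 cells. Both treated libraries lay far above both vehicle libraries, with a log2 fold change of 2.62 ± 0.21 (SE, adjusted p = 4.8e-11). PDCD1LG2 went from 0.792 and 0.398 CPM (6 and 6 reads) to 8.44 and 3.85 CPM (3.45 ± 0.54, adjusted p = 2.9e-05), without overlap, although the treated sgRNAs differed from each other. CD47 went from 21.9 and 27.7 to 45.7 and 39.2 CPM, also without overlap (0.75 ± 0.14, adjusted p = 0.00049). The CD47 call was lost without GFP vehicle sg1 (0.60) and in 1 edgeR fit of all 20 libraries (0.74, adjusted p = 0.32).

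Of the other ligands in A549 control cells, NECTIN2 also rose, from 113 and 115 CPM to 168 and 192 CPM (0.66 ± 0.10, adjusted p = 2.8e-05). It was not called in 1 edgeR fit of all 20 libraries (0.63, adjusted p = 0.053). PVR did not pass, at 255 and 271 CPM with vehicle and 234 and 233 CPM with IFN-β (-0.17 ± 0.10, adjusted p = 0.42). MICB was 14.4 and 10.3 CPM with vehicle and 18.9 and 19.7 CPM with IFN-β, without overlap, and missed the threshold (0.68 ± 0.21, adjusted p = 0.058), which it passed without GFP vehicle sg1 (0.89, adjusted p = 0.037), ADAR vehicle sg1 (0.68, adjusted p = 0.042) or ADAR vehicle sg2 (0.68, adjusted p = 0.039), the ADAR libraries entering through the shared estimate of spread. It also passed with the sgRNA number as a block (0.69, adjusted p = 0.034), with a block for each sgRNA, which both the vehicle and IFN-β cells carried (0.68, adjusted p = 0.026), and without a filter on low counts (0.70, adjusted p = 0.036). The remaining NKG2D ligands did not pass either, with MICA at 20.3 and 18.7 against 14.3 and 16.2 CPM and ULBP2 at 2.38 and 2.86 against 2.53 and 3.105 CPM. ICAM1 had 0 and 2 reads with vehicle and 5 and 6 reads with IFN-β, a ratio of 4.65 with a counting interval of 1.02 to 43.2. Of the 9 ligands 4 rose and none fell, where 4.39% of 15449 genes rose and 5.7% were called in either direction. Of 7 lung epithelial markers, 4 were tested here and 2 were higher with IFN-β, KRT8 (0.50 ± 0.11) and CDH1 (0.68 ± 0.17). The summed level of the 7 was 2823 to 3021 CPM with vehicle and 3419 to 4492 CPM with IFN-β, and their part in the ligand results was not tested.

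In ADAR knockout A549 cells, IFN-β raised 7 of 9 ligands, where it raised 15.5% of all genes and 24.5% were called. DESeq2 called 6 of the 8 ligands to which it gave an adjusted p. CD274 went from 3.78 and 4.27 CPM with vehicle to 65.6 and 80.5 CPM with IFN-β (4.18 ± 0.21, adjusted p = 1.2e-16). PDCD1LG2 went from 1.34 and 0.102 CPM (11 and 1 reads) to 5.25 and 7.71 CPM (3.27 ± 0.54, adjusted p = 2.4e-05). CD47 went from 30.6 and 28.7 to 48.03 and 44.5 CPM (0.64 ± 0.14, adjusted p = 0.0012), and lost its call in 1 edgeR fit of all 20 libraries (0.58, adjusted p = 0.24). Treated and vehicle libraries were separate for each of these checkpoint ligands.

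Both nectin-family ligands rose in the knockout cells. PVR went from 252 and 239 to 325 and 361 CPM (0.48 ± 0.10, adjusted p = 0.00032), and NECTIN2 from 94.4 and 99.1 to 157 and 149 CPM (0.66 ± 0.10, adjusted p = 1.4e-05), each without overlap. ICAM1 had 4 and 2 reads with vehicle and 20 and 38 reads with IFN-β (0.488 and 0.203 against 2.102 and 1.98 CPM). It was called (2.57 ± 0.67, adjusted p = 0.0048), and the call was lost without ADAR vehicle sg2 (2.05, adjusted p = 0.12) or ADAR IFN-β sg2 (2.60, adjusted p = 0.057). Among the NKG2D ligands, MICB went from 10.2 and 6.81 to 17.8 and 13.9 CPM (0.89 ± 0.23, adjusted p = 0.0042) and lost its call without ADAR vehicle sg2 (0.62, adjusted p = 0.14). MICA at 19.6 and 20.1 against 24.3 and 26.1 CPM (0.34 ± 0.17, adjusted p = 0.13) and ULBP2 at 3.41 and 3.25 against 2.21 and 2.81 CPM (-0.38 ± 0.36, adjusted p = 0.49) did not pass.

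**Figure D2:**
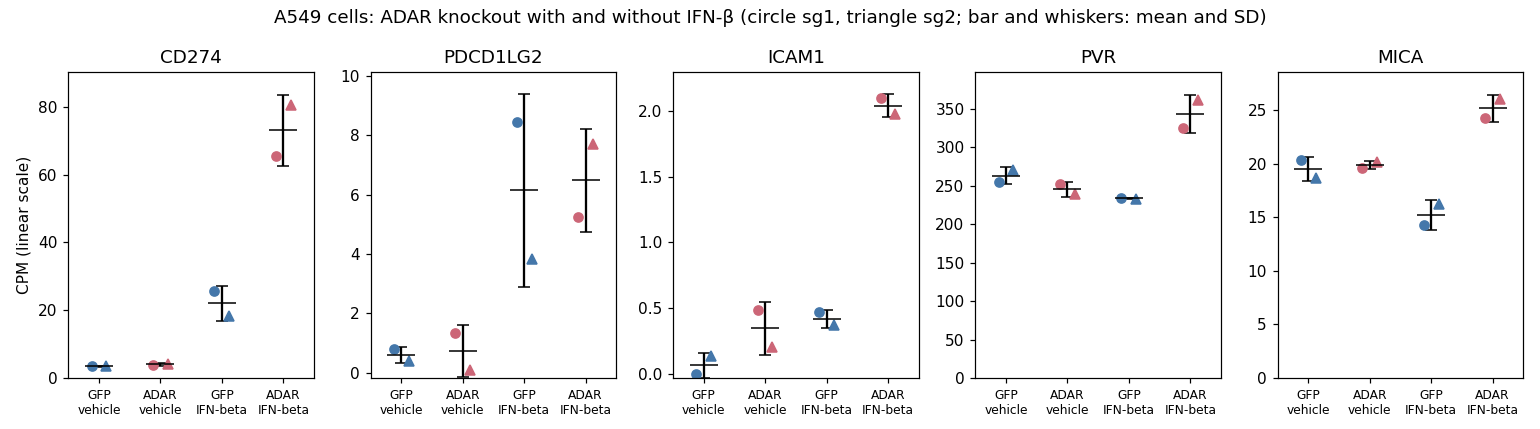
Level in CPM (linear y axis) of 5 ligands in the 4 A549 conditions (x axis), with circles for sg1, triangles for sg2, blue for GFP and red for ADAR sgRNAs, and bars and whiskers for the mean and SD of 2 libraries. CD274 stands at 65.6 and 80.5 CPM with ADAR sgRNAs and IFN-β, where PVR, MICA and ICAM1 also have their highest values, and PDCD1LG2 overlaps between the IFN-β conditions.

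With vehicle, ADAR knockout called 0 of the 9 ligands in A549 by edgeR, where 0.123% of genes were called. An unadjusted p under 0.05 was found for 2 of them, MICB (-0.52 ± 0.23) and NECTIN2 (-0.24 ± 0.11), and DESeq2 also called 0. CD274 was 3.43 and 3.59 CPM in controls and 3.78 and 4.27 CPM in knockouts (log2 difference 0.20, interval -0.34 to 0.74). ICAM1 had 2 reads in controls and 6 in knockouts, a ratio of 3.77 with a counting interval of 0.673 to 38.2. The comparisons within A549 share libraries, so each gene's values in them are not independent.

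With IFN-β present, knockout cells carried more of 4 ligands than control cells, 1 from each role. CD274 was 65.6 and 80.5 CPM against 25.7 and 18.3 CPM, 3.36-fold higher (log2 1.75 ± 0.16, adjusted p = 1.7e-09), and stayed called without each library in turn. PVR was 325 and 361 against 234 and 233 CPM (0.56 ± 0.10, adjusted p = 0.00011). MICA was 24.3 and 26.1 against 14.3 and 16.2 CPM (0.72 ± 0.16, adjusted p = 0.0024). ICAM1 was 2.102 and 1.98 against 0.469 and 0.373 CPM (2.27 ± 0.59, adjusted p = 0.0075). Knockout and control libraries were separate for all 4, and 10.8% of genes were higher at this threshold (17% called in either direction). DESeq2 called 3 of the 8 ligands to which it gave an adjusted p. In the same comparison the epithelial genes KRT8 (-0.48 ± 0.11), KRT18 (-0.44 ± 0.11) and CDH1 (-0.74 ± 0.16) were lower than in the treated controls, where KRT8 and CDH1 had themselves risen with IFN-β, and their part in these results was not tested.

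The calls of ICAM1 and MICA here were lost without ADAR IFN-β sg2 (2.31, adjusted p = 0.11 and 0.67, adjusted p = 0.066), and that of ICAM1 also without GFP IFN-β sg2 (2.09, adjusted p = 0.12). Several ligands that IFN-β raised were not called between genotypes. CD47 was 48.03 and 44.5 against 45.7 and 39.2 CPM (log2 0.12, interval -0.15 to 0.39), and PDCD1LG2 5.25 and 7.71 against 8.44 and 3.85 CPM (0.14, interval -0.59 to 0.86). NECTIN2 was 157 and 149 against 168 and 192 CPM (-0.24 ± 0.10, adjusted p = 0.1), and was called lower without GFP IFN-β sg1 (-0.33, adjusted p = 0.018). MICB at 17.8 and 13.9 against 18.9 and 19.7 CPM and ULBP2 at 2.21 and 2.81 against 2.53 and 3.105 CPM were not called.

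The interaction term, which asks whether the IFN-β response itself differed between knockout and control A549 cells, called 2 of 9 ligands, where 5.05% of genes were called. For CD274 the log2 response was larger in knockout cells by 1.55 ± 0.32 (adjusted p = 0.0025), and for PVR by 0.66 ± 0.14 (adjusted p = 0.0027). MICA had a term of similar size that missed the threshold (0.69 ± 0.24, adjusted p = 0.094). Terms for NECTIN2 (interval -0.28 to 0.29), CD47 (-0.51 to 0.29), PDCD1LG2 (-1.87 to 1.51), ICAM1 (-3.11 to 3.99), MICB (-0.40 to 0.82) and ULBP2 (-1.49 to 0.53) did not pass. The CD274 call was lost without GFP vehicle sg2 (1.51, adjusted p = 0.058). PVR lost its call in 1 fit of all 20 libraries (0.62, adjusted p = 0.43), as it did there for knockout with IFN-β (0.51, adjusted p = 0.12) and for IFN-β in knockout cells (0.42, adjusted p = 0.17).

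In the ADAR1-dependent lines the knockout effect was read without added interferon. In NCI-H1650, CD274 was 13.9 and 10.3 CPM in controls and 17.5 and 24.1 CPM in knockouts (log2 0.77 ± 0.21, adjusted p = 0.011). ICAM1 was 11.9 and 8.12 CPM in controls and 16.2 and 18.6 CPM in knockouts (0.78 ± 0.22, adjusted p = 0.015). Both genes were higher in each knockout library than in each control, and these were the 2 of 9 ligands called, where 8.6% of genes were called. Both calls were lost without GFP sg2 (0.54, adjusted p = 0.23 for CD274 and 0.51, adjusted p = 0.31 for ICAM1), without ADAR sg2 (0.51, adjusted p = 0.2 and 0.67, adjusted p = 0.083), and with DESeq2 (adjusted p = 0.23 and 0.27).

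The other 7 ligands of NCI-H1650 did not pass. PVR came nearest, at 284 and 254 CPM in controls and 321 and 326 CPM in knockouts (0.26 ± 0.10, adjusted p = 0.098). The NKG2D ligands had intervals of the log2 difference around 0, with MICA at 40.1 and 40.6 against 40.3 and 39.9 CPM (-0.29 to 0.27), MICB at 33.1 and 32.96 against 33.6 and 32.5 CPM (-0.29 to 0.30) and ULBP2 at 22.9 and 25.3 against 24.9 and 25.4 CPM (-0.27 to 0.39). PDCD1LG2 at 17.6 and 13.1 against 12.8 and 14.9 CPM, CD47 at 113 and 103 against 91.9 and 113 CPM, and NECTIN2 at 99.5 and 109 against 123 and 104 CPM overlapped between groups.

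In NCI-H196, 2 of 9 ligands were called, where 17.8% of genes were called. ICAM1 was 27.4 and 87.95 CPM in controls and 97.4 and 99.4 CPM in knockouts (1.81 ± 0.15, adjusted p = 3.1e-32). The higher control value came from 6 reads in GFP sg2, with an exact Poisson interval of 32.3 to 191 CPM that holds both knockout values and not the value of GFP sg1. Without GFP sg1 the log2 fold change was no longer called (0.18, adjusted p = 0.95), and without GFP sg2 it was (1.84, adjusted p = 2.9e-36). CD47 fell, from 166 and 235 CPM to 121 and 136 CPM (-0.33 ± 0.10, adjusted p = 0.012), a call lost without GFP sg1 (-0.81, adjusted p = 0.56), ADAR sg1 (-0.37, adjusted p = 0.65) or ADAR sg2 (-0.55, adjusted p = 0.87), although the log2 fold change itself was no smaller there. It was also lost when the sgRNA number entered as a block (-0.55, adjusted p = 0.49) and when no genes were filtered for low counts (-0.35, adjusted p = 0.13). DESeq2 called neither gene.

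CD274 in NCI-H196 was 8.48 and 0 CPM in controls (76 and 0 reads) and 19.3 and 10.4 CPM in knockouts (19 and 83 reads), and did not pass (0.46 ± 0.27, adjusted p = 0.24). Both knockout libraries were above both controls, but the 0 allowed up to 43.98 CPM. NECTIN2 was 35.1 and 29.3 against 36.5 and 48.05 CPM (0.39 ± 0.16, adjusted p = 0.066). The NKG2D ligands did not pass, with MICB at 109 and 132 against 94.4 and 115 CPM, MICA at 47.8 and 29.3 against 52.8 and 56.1 CPM and ULBP2 at 22.9 and 58.6 against 19.3 and 24.7 CPM. PVR was 248 and 132 against 216 and 269 CPM, and PDCD1LG2 42.9 and 14.7 against 28.4 and 36.3 CPM. In GFP sg2 the values of the 9 ligands rested on 0 to 16 reads, and for 8 of them the GFP sg1 value lay inside the counting interval of GFP sg2.

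In HCC366, 6 ligands were tested and 0 were called by edgeR or DESeq2, where edgeR called 1.25% of genes. ICAM1 was 223 and 185 CPM in controls and 294 and 419 CPM in knockouts (0.81 ± 0.33, adjusted p = 0.24), and PVR 178 and 161 against 274 and 402 CPM (1.00 ± 0.33, adjusted p = 0.18). Both were higher in each knockout library, and these were the 2 ligands with an unadjusted p under 0.05. Without ADAR sg2, the library with the most multiply aligned reads, the log2 fold change of PVR was 0.72. Without ADAR sg1, which leaves that library as the lone knockout, it was 1.24 for PVR and 1.03 for ICAM1. In these reduced fits the lone knockout library was assumed to vary like the control libraries.

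CD47 in HCC366 split by sgRNA, with 174 and 168 CPM in controls and 158 and 31.7 CPM in ADAR sg1 and sg2 (-0.86 ± 0.60, adjusted p = 0.46). Without ADAR sg2 its log2 fold change was -0.09. Without ADAR sg1, which leaves the library with the most multiply aligned reads as the lone knockout, it was -2.44. NECTIN2 was 94.5 and 89.7 against 74.4 and 129 CPM, MICA 23.2 and 22.1 against 28.9 and 32.98 CPM, and MICB 55.00 and 54.1 against 59.5 and 60.1 CPM. Too few reads were counted to test CD274 (1 and 4 in controls, 3 and 3 in knockouts), PDCD1LG2 (0 and 1, then 1 and 0) and ULBP2 (5 and 10, then 2 and 5).

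**Figure D3:**
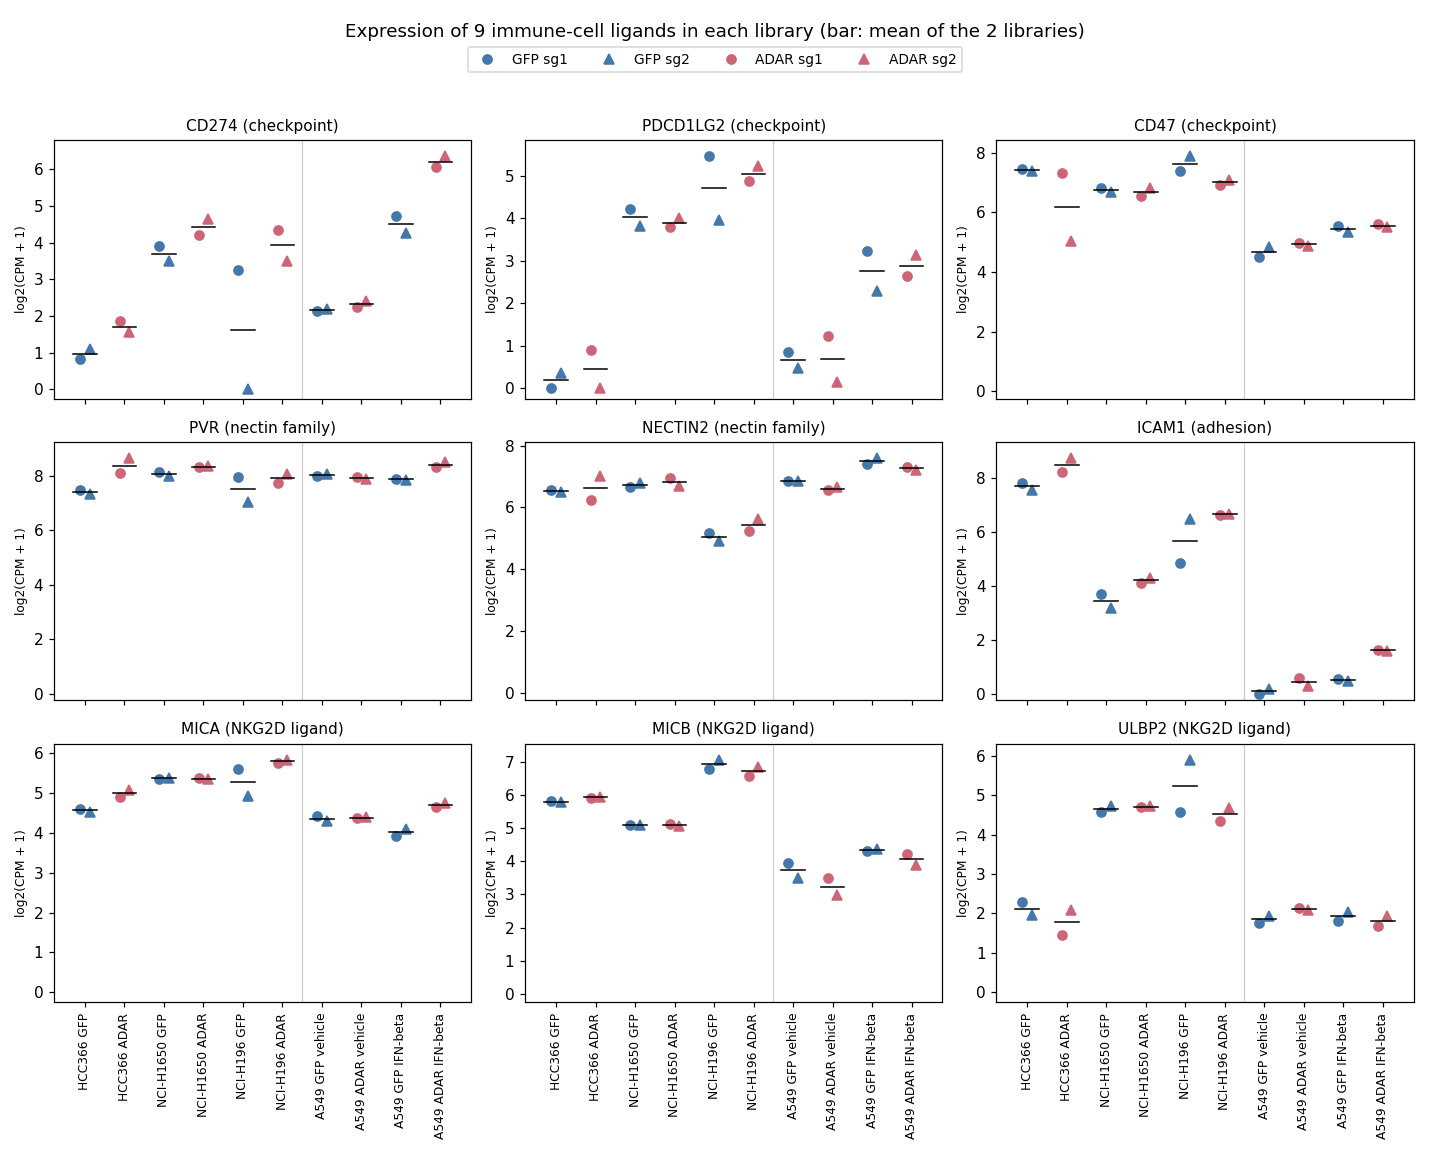
Level of each ligand in all 20 libraries, as log2 of CPM (scaled within each line) plus 1 on the y axis, by condition on the x axis. Circles are sg1 and triangles sg2, blue GFP and red ADAR, and bars the mean of 2 libraries. ICAM1 is higher in both ADAR libraries of HCC366 and NCI-H1650 than in their controls, and the ADAR libraries of HCC366 split for CD47 (158 and 31.7 CPM).

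Over the 3 ADAR1-dependent lines together, ICAM1 was the 1 ligand called, where 5.3% of genes were called. Its average log2 fold change was 0.98 ± 0.19, adjusted p = 0.0062, and it remained called without each library in turn, the smallest value being that without NCI-H196 GFP sg1 (0.72, adjusted p = 0.026). CD274 averaged 0.72 ± 0.22, adjusted p = 0.064 and passed without HCC366 ADAR sg2 (0.68, adjusted p = 0.014). PVR averaged 0.46 ± 0.17, adjusted p = 0.11 and passed without NCI-H196 GFP sg1 (0.63, adjusted p = 0.042). The NKG2D ligands MICA (0.17 ± 0.14), MICB (-0.01 ± 0.13) and ULBP2 (-0.06 ± 0.18) did not pass.

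The test of whether the knockout effect differed between these 3 lines called 0 of the 9 by edgeR, with 0 at an unadjusted p under 0.05 and 0 of the 6 to which DESeq2 gave an adjusted p, where 0.701% of genes were called. Its calls changed without HCC366 ADAR sg1 or sg2, as did those over all genes. Each of these fits left a lone HCC366 knockout library. The test of the average effect against that in vehicle-treated A549 also called 0 of 9 by edgeR and 0 of the 5 to which DESeq2 gave an adjusted p, where 0.953% of genes were called by edgeR, although 2 ligands, MICB and PVR, had an unadjusted p under 0.05. For ICAM1 this difference was -0.64, interval -2.55 to 1.26, and for CD274 0.60, interval -0.31 to 1.501. Without HCC366 ADAR sg1 the difference was -1.27 for CD47, 0.55 for PVR and 0.50 for NECTIN2. With all libraries it was -0.70, 0.55 and 0.44. The reduced fit left ADAR sg2, with the most multiply aligned reads, as the lone HCC366 knockout.

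**Figure D4:**
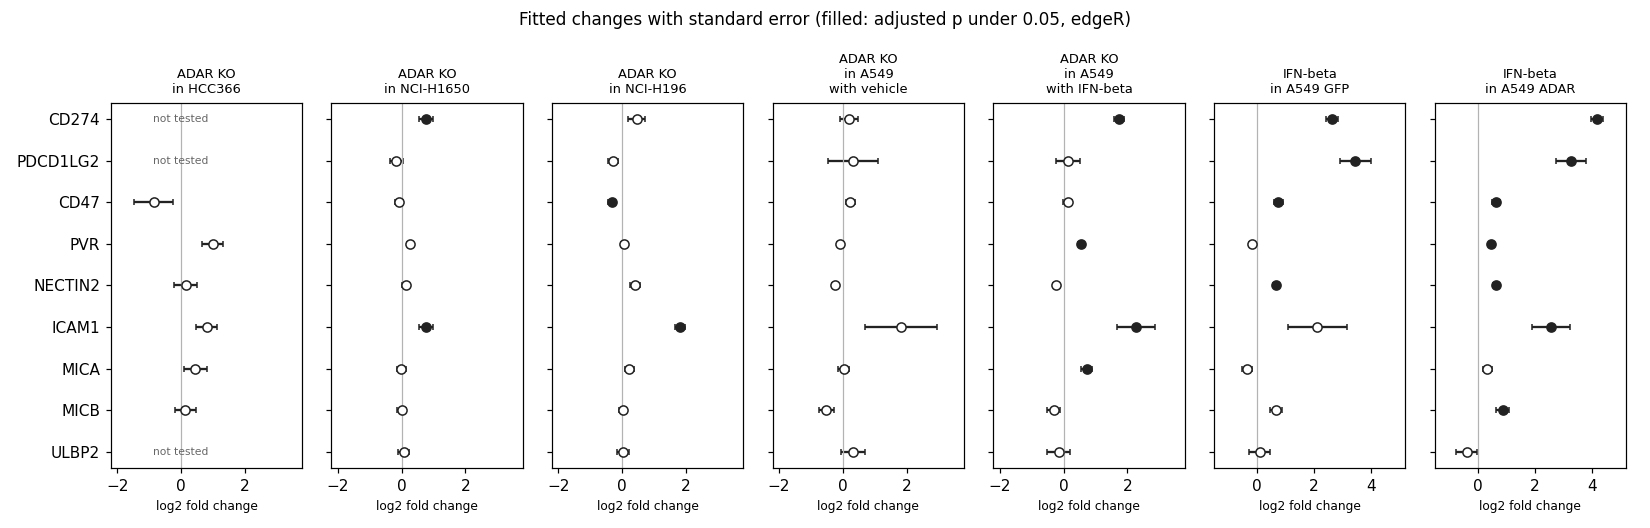
Fitted log2 fold change with its standard error (x axis) of each ligand (y axis) in 7 comparisons, with filled points for adjusted p under 0.05 by edgeR. The axes of the IFN-β panels are shifted to higher values, and CD274 stands at 2.62 in GFP and 4.18 in ADAR cells there. HCC366 has no value for CD274, PDCD1LG2 and ULBP2, which were not tested.

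Set side by side by role, 3 of 3 checkpoint ligands rose with IFN-β in control and in knockout A549 cells. Over all genes 4.39% and 15.5% rose. Median log2 fold changes of these ligands were 2.62 and 3.27, against medians within 0.01 of 0 over all genes. CD47 rose least of these (0.75 and 0.64), near NECTIN2 (0.66 and 0.66) and MICB (0.68, not called, and 0.89). It was not called in either genotype in 1 fit of all 20 libraries. Of the 3 NKG2D ligands, 1 rose in knockout cells, MICB, which in control cells did not pass except under the settings given above (medians 0.10 in control and 0.34 in knockout cells). With ADAR knockout, 1 of 3 checkpoint ligands rose in NCI-H1650 and in IFN-β-treated A549, each time CD274. There 8.6% and 17% of all genes were called. In NCI-H196, 1 of 3 was called and fell, CD47 (-0.33), where 17.8% of genes were called, and that call was lost under the settings given above. ICAM1 rose in NCI-H1650, NCI-H196 and IFN-β-treated A549, with the limits given above. NKG2D ligands were called for knockout once, MICA in IFN-β-treated A549, and had medians of 0.00 in NCI-H1650, 0.04 in NCI-H196 and 0.29 over the 2 tested in HCC366. No difference between the roles was tested.

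Other genes of the same families were examined from lists. Of 5 other NKG2D ligands, ULBP1 was the 1 that rose after knockout, in NCI-H1650 (4.19 and 5.97 CPM to 7.06 and 13.03 CPM, 0.97 ± 0.30, adjusted p = 0.031), and 0 of the 4 tested in A549 were called with IFN-β. Of 13 other checkpoint ligands, 6 were tested in A549. IFN-β raised CEACAM1, a partner of TIM-3, by 4.43 ± 0.44 in control and 4.12 ± 0.45 in knockout cells, and LGALS9, which encodes galectin-9, by 2.98 ± 0.31 and 2.70 ± 0.34. CD276, the B7-H3 gene, fell with IFN-β in knockout cells (-0.49 ± 0.15, adjusted p = 0.019), and TNFRSF14, the ligand of BTLA, rose after knockout in NCI-H196 (0.66 ± 0.21, adjusted p = 0.014). Of 4 other nectin-family genes, NECTIN1 fell with IFN-β in knockout A549 cells (-0.82 ± 0.18, adjusted p = 0.00066) and was lower in them than in treated controls (-0.57 ± 0.17, adjusted p = 0.021). NECTIN3 fell in NCI-H196 (-0.28 ± 0.11, adjusted p = 0.049). Knockout calls of listed genes in NCI-H196, here and below, include the shallow GFP sg2 library as a control. Over all genes edgeR called 2513 there, against 10 with DESeq2 and 115 with the sgRNA number as a block.

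Of 8 other adhesion ligands, VCAM1, which binds the integrin VLA-4, was called in several comparisons. In A549 it was 7.79 and 7.703 CPM in controls and 12.6 and 10.6 CPM in knockouts with vehicle, and 11.8 and 12.05 against 26.5 and 32.7 CPM with IFN-β, where the knockout effect was called (1.32 ± 0.18, adjusted p = 3.9e-06). In NCI-H196 it was 25.8 and 117 CPM in controls and 112 and 90.5 CPM in knockouts (1.82 ± 0.15, adjusted p = 2.6e-31), where the higher control value came from 8 reads in GFP sg2, the shallow library, as for ICAM1. CD58, the ligand of CD2, was called in the difference of the 3 lines from A549 (-1.35 ± 0.34, adjusted p = 0.046).

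Among 10 regulators and partners, IRF1 rose after knockout in NCI-H1650 (55.1 and 58.5 CPM to 99.5 and 104 CPM, log2 0.84 ± 0.12), NCI-H196 (1.00 ± 0.15) and IFN-β-treated A549 (0.98 ± 0.12). IFN-β raised IRF1 by 2.91 ± 0.14 in control and 3.42 ± 0.14 in knockout A549 cells. JAK2, which encodes a Janus kinase and lies on chromosome 9 like CD274, rose with IFN-β in knockout cells (0.95 ± 0.21). CMTM4, a protein that stabilizes PD-L1, fell with IFN-β in both (-0.65 ± 0.12 and -0.80 ± 0.12), while its relative CMTM6 was lower after knockout in NCI-H196 (-0.39 ± 0.13). The sheddases ADAM10 and ADAM17, which can release NKG2D ligands from the surface, rose with IFN-β in knockout cells (0.41 ± 0.10 and 0.53 ± 0.12), and ADAM10 was lower after knockout in NCI-H196 (-0.29 ± 0.10). JAK1 rose in NCI-H1650 (0.31 ± 0.10). Of the 10 receptors of these ligands, 3 were tested in NCI-H196 and NCI-H1650 and 2 in HCC366 and A549, the others having too few reads, and SIRPA was the 1 of those tested that was called for knockout, in NCI-H196 (0.39 ± 0.11).

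Across the 10 condition means, the gene most like each ligand in log2 CPM among 19523 genes was, with Pearson's r, ZNF267 for CD274 (0.93), EHD4 for PDCD1LG2 (0.98), CTSO for CD47 (0.95), ZNF579 for PVR (0.97), TGM2 for NECTIN2 (0.99), CD83 for ICAM1 (0.99), TMEM79 for MICA (0.94), DLX1 for MICB (0.97) and ENSG00000277918 for ULBP2 (0.99). These values describe 10 points that share cell lines and libraries.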

How the data were processed

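Raw read counts per gene, as deposited by the authors for 20 libraries, had been made by alignment to hg19 with STAR and counting with HTSeq, and the authors tested them with DESeq2. The strand setting and annotation release were not given in the sources used here. Of 58233 identifiers, 55727 were paired with a symbol. Rows without a gene name (unaligned, ambiguous and multiply aligned reads) were left out of library sizes. Libraries were grouped by line, sgRNA target and treatment, 2 sgRNAs per condition. Depth ran from 62679 to 19520189 reads on genes. CPM were scaled by TMM within each line for condition values, and over all 20 libraries, divided by exon length (GENCODE on GRCh37), for levels between genes. Tests used edgeR 4.0.16 (quasi-likelihood, filterByExpr, Benjamini-Hochberg adjusted p under 0.05) in R 4.3.3. Fits were made per line and over the 3 ADAR1-dependent lines. Basal levels and the difference from A549 were fitted over all 20 libraries by condition. Intervals are 1.96 standard errors. Every member is named, and other listed genes are named where called, except some listed genes that are not reported here. The members and lists were chosen with earlier results of these data known. Alternatives were DESeq2 1.42.0, its size factors, no filter, a replicate block, 1 fit of all 20 libraries and leaving out each library. The test was checked on simulated data.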

Additional observations from a re-analysis of the deposited data

Results flagged for a closer look

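The response to IFN-β differed between ADAR knockout and control A549 cells for CD274 (log2 difference of 1.55) and PVR (0.66) by the interaction term of edgeR's quasi-likelihood fit. CD274 was higher with IFN-β than with vehicle in both genotypes, and PVR passed in knockout cells only, where that difference is the tested term.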

How the results depend on the processing

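The number of ligands called in 1 fit of all 20 libraries was 3 in HCC366 (0 in the line's own fit), 0 in NCI-H1650 (2), 1 in NCI-H196 (2), 2 for IFN-β in A549 GFP cells (4), 5 in ADAR cells (7), 3 for knockout with IFN-β (4), 1 for the interaction (2) and 2 over the 3 lines (1). DESeq2 called 0 in NCI-H1650 and 0 in NCI-H196, and without a filter on low counts 1 was called in NCI-H196 and 2 over the 3 lines. For knockout with IFN-β DESeq2 called 3, and for IFN-β in ADAR cells 6, with an adjusted p for 8 ligands in each. With 1 library left out, counts ran from 0 to 3 in HCC366, 0 to 2 in NCI-H1650, 0 to 2 in NCI-H196, 2 to 5 for knockout with IFN-β, 4 to 5 for IFN-β in GFP cells, 5 to 7 in ADAR cells, 1 to 2 for the interaction, 1 to 2 over the 3 lines, 0 to 3 for the difference between the 3 lines and 0 to 3 for that from A549. For basal levels they ran from 4 to 8 (HCC366 and NCI-H1650), 1 to 8 (HCC366 and NCI-H196), 5 to 6 (HCC366 and A549), 1 to 5 (NCI-H1650 and NCI-H196), 6 to 9 (NCI-H1650 and A549) and 5 to 9 (NCI-H196 and A549). Without NCI-H196 GFP sg1, which leaves the shallow library, the basal log2 difference reversed for CD274 (range with 1 library left out -3.34 to 5.63) and MICA (-1.03 to 0.0034) between HCC366 and NCI-H196, PDCD1LG2 (-1.63 to 0.39) between NCI-H1650 and NCI-H196 and MICA (-0.21 to 0.79) between NCI-H196 and A549. Of 2485 single-gene alternatives, 2383 kept their direction and side of the threshold, or changed sign uncalled in both fits (69), 68 lost and 30 gained a call and 4 reversed. In fits with 1 library left out, 1 condition had a lone library, and the share of all genes called also changed. The cause was not tested.

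Same-numbered libraries did not deviate together (correlations of deviations from -0.253 to -0.00477), and the main tests did not pair them. In A549, however, same-numbered vehicle and IFN-β libraries of a target carried the same sgRNA. That pairing is part of the design, and these correlations cannot exclude it. With a replicate block 1 ligand was called in NCI-H196. Crossing the numbers in HCC366 gave 960 genes called, against 300 with the block and 139 without.

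Over all genes, calls were 139 in HCC366 (DESeq2 362, no filter 903, all 20 libraries 3701), 1250 in NCI-H1650 (413 with DESeq2, 159 with all 20), 2513 in NCI-H196 (DESeq2 10, no filter 1552, block 115, all 20 98), 19 for knockout with vehicle (DESeq2 11, no filter 30, all 20 5), 2622 for knockout with IFN-β (all 20 1087), 880 for IFN-β in GFP cells (531), 3788 in ADAR cells (2067), 780 for the interaction (164), 876 over the 3 lines (no filter 1829, block 362, all 20 3148), 116 for the difference between them (DESeq2 77, no filter 471, all 20 450) and 186 for that from A549 (no filter 111). Depth limits CD274, PDCD1LG2 and ULBP2 in HCC366, ICAM1 in A549 and all 9 ligands in NCI-H196 GFP sg2.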
